A study of Mus musculus with 8 samples.

Results

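The genes described here encode the translation initiation factors eIF1 to eIF6 and the translation elongation factors eEF1 and eEF2, with the binding proteins, kinase and methyltransferases that carry the same gene symbols. They were chosen by name, as protein-coding rows of the deposited gene tables whose symbol begins with Eif1 to Eif6 or with Eef1 or Eef2, without the eIF2 kinases (Eif2ak genes) and without genes on the sex chromosomes. This rule gave 61 genes among 41457 rows, and it used no measured value. The RNA came from epidermal keratinocytes (KCs) of the tail skin of adult, untreated mice of strain C57BL/6 (C57BL/6J in the study's text) with the Wildtype genotype, grown in a serum-free, low-calcium medium and passaged before they were fully confluent. KCs of 4 samples were harvested after 1 week in culture and KCs of 4 samples after 3 weeks, and the series describes 4 independent experiments. Time in culture was the only difference between the groups that the labels give, so that age of the culture and number of passages cannot be told apart. The comparison asks how the messenger RNAs of the translation machinery differed between KCs early and late in culture.

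Protein synthesis begins when eIF2 brings the initiator tRNA to the small ribosomal subunit, eIF3 and eIF4 factors join this subunit to the capped end of a messenger RNA, and eIF1, eIF1A and eIF5 take part in finding the start codon. eIF5B then joins the large subunit, and the elongation factors eEF1A and eEF2 deliver aminoacyl-tRNAs and move the ribosome along. The amounts and the phosphorylation of eIF2 and of the cap-binding factor eIF4E and its inhibitors (the 4E-BPs) are known points of control, and cells that grow and divide quickly are known to make much of this machinery.

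A sample held 13896807 to 20026084 reads on exons, and between 81.6% and 84.7% of them mapped to a single place. Within a time point no library was a copy of another, since chi-square divided by its degrees of freedom was at least 14.7 between replicates. The KC markers Krt5, Krt14 and others of a list of 7 genes summed to 12155 to 14347 RPKM (reads scaled to exon length and sequencing depth) at 1 week and to 7033 to 8242 RPKM at 3 weeks. The listed markers of suprabasal cells summed to 3.96 to 26.7 RPKM at 1 week and 3.86 to 13.6 at 3 weeks, those of fibroblasts to 3.16 to 5.15 and 2.43 to 4.84, those of melanocytes to 3.18 to 20.9 and 1.26 to 5.50, and those of leukocytes to 0.767 to 2.37 and 0.740 to 2.47. Endothelial markers reached at most 0.557 RPKM in any sample. Merkel cell markers summed to 0.0417 to 0.132 RPKM at 1 week and 0.311 to 0.640 at 3 weeks, without overlap. None of the listed markers was at 0 in all 8 samples, and the part of other cells in the results was not tested. In bulk RNA, fewer cells of a type and less RNA per cell cannot be told apart. The Y-linked factor gene Eif2s3y, which the rule leaves out, had 0 reads in 3 libraries (1 at 1 week and 2 at 3 weeks) and 661 to 947 reads in the other 5, while the labels give no sex.

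The libraries also differed in how well long transcripts were represented. A length index was taken from log2 levels, each gene relative to its mean over all samples. The index was the median of 2797 tested genes with transcripts of at least 5000 bases minus that of 1512 genes with transcripts under 1500 bases. It was -0.37, -0.08, 0.07 and 0.07 at 1 week and 0.38, 0.02, -0.73 and 0.61 at 3 weeks. Replicate 3 at 3 weeks was thus poorest and replicate 4 at 3 weeks richest in long transcripts, and both ends of the range lay within the 3-week group. For the 58 factor genes tested below, the deviation in a library was taken from the gene's mean over the other samples of the same time. Across these genes it was correlated with log2 transcript length at r = -0.48, -0.03, 0.20 and 0.43 in replicates 1 to 4 at 1 week. At 3 weeks r was 0.44, -0.25, -0.60 and 0.52, as a description across genes that share a library.

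Of the 61 genes, 58 had enough reads to be tested with edgeR's quasi-likelihood test, and 16 of these were lower and 1, Eif4a2, was higher after 3 weeks with a Benjamini-Hochberg adjusted p under 0.05. The share called was 29.3%, against 32.8% of the 12590 genes tested in all. It was uneven in direction, since 27.6% of the factor genes were lower, against 17.0% of all genes, and 1.72% were higher, against 15.7%. Log2 fold changes of 3 weeks over 1 week were negative for 47 and positive for 11 of the 58 genes, with a median of -0.32, against 0.03 for all genes tested. At an unadjusted p under 0.05, 24 of the 58 genes passed (41.4%), against 43.7% of all genes tested. No factor gene changed by as much as 1 on the log2 scale, as the fold changes ran from -0.94 for Eif1ad to 0.89 for Eif4a2.

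The number of calls depended on single libraries and on the settings of the test. It was 8 lower and 0 higher without replicate 1 at 1 week, 9 and 1 without replicate 2, 11 and 0 without replicate 3, and 7 and 0 without replicate 4. Without replicate 1 or replicate 2 at 3 weeks it was 7 and 1, without replicate 4 it was 14 and 1, and without replicate 3, the library poorest in long transcripts, it was 28 and 2. With the length index as a covariate, an alternative added after the data had been seen, 31 genes were lower and 4 higher, and with the Y-linked reads as a covariate, also added later, 14 were lower and 1 higher. Limma on log2(RPKM + 0.1) gave 32 lower and 0 higher. With samples of the same replicate number fitted as a block the count was 7 and 0, and with file numbers as the block 17 and 0. The number of all genes called moved too, from 4127 to 4861 without replicate 3 at 3 weeks, to 5839 with the length index and to 3827 with the Y-linked reads. It fell to 3202, 3322, 3438 and 3015 without replicates 1 to 4 at 1 week. For 3 weeks it was 3205 without replicate 1, 3147 without replicate 2 and 4680 without replicate 4. Limma on log2(RPKM + 0.1) gave 4402, and the blocks by replicate number and by file number gave 2867 and 3109. Eif1ad, Eef2kmt, Eif3d, Eif2b4 and Eif2b5 passed the threshold in each of the 21 alternatives run, and none of the 17 called genes changed sign in any of them.

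**Figure D1:**
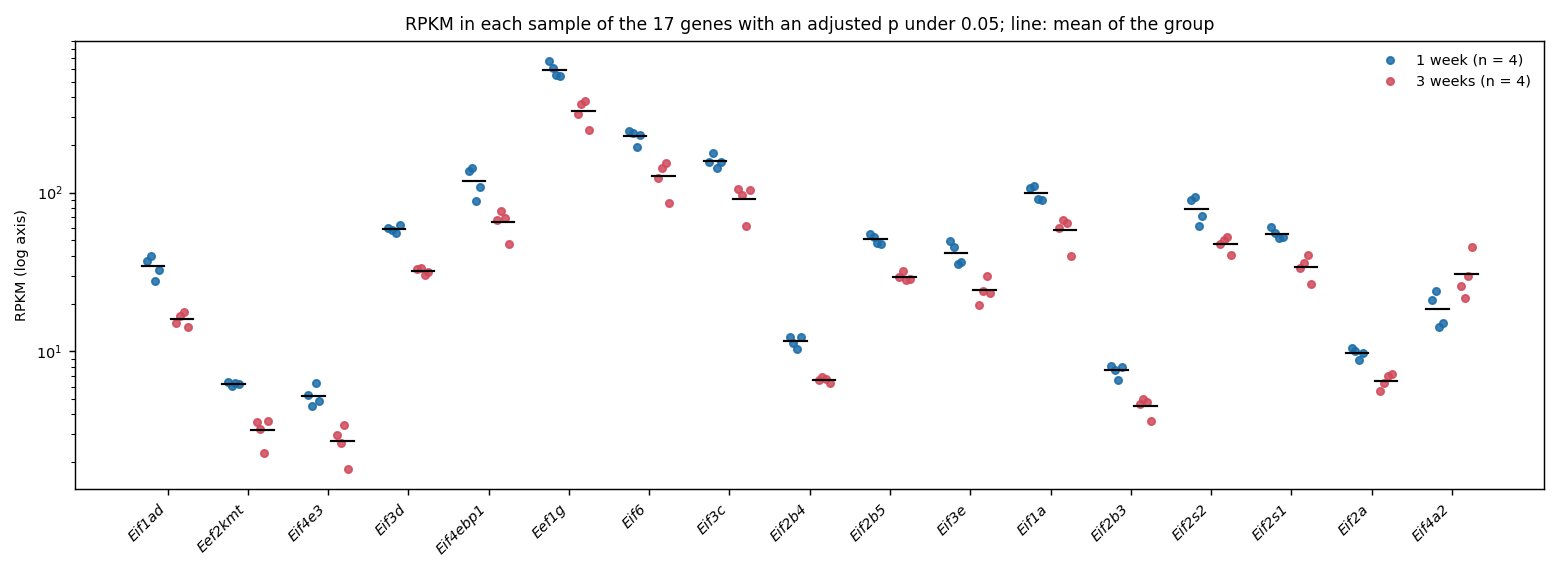
RPKM (log axis) of the 17 translation factor genes with an adjusted p under 0.05, in each of the 4 samples at 1 week (blue) and the 4 samples at 3 weeks (red), with a line at the mean of each group. In 16 genes all 3-week samples lay below all 1-week samples, and for Eif4a2 the groups overlapped.

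On the RPKM scale, which carries no correction for library composition, all 3-week samples lay below all 1-week samples for 34 of the 58 genes (58.6%), against 26.2% of all genes tested, and no factor gene lay above in all, against 10.8%. After TMM normalization, which scales the libraries by the bulk of their genes, the groups did not overlap for 18 genes (31.0%), all of them lower at 3 weeks. Of all genes tested, 18.5% lay lower in this way and 16.4% higher. The median log2 fold change of all genes was 0.18 lower on the log2(RPKM + 0.1) scale than after TMM normalization, and falls look larger in RPKM by about that amount. The 61 genes together took 3.08% to 3.73% of the exon reads at 1 week and 2.28% to 2.73% at 3 weeks.

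The sequences in front of the genes on which the account turns are shown here. They are the promoter windows, 250 bases up to the transcription start on the strand of the gene, of 3 genes that fell under each alternative (Eif1ad, Eif3d and Eif2b5) and of the paralogs Eif4a1, which was not called, and Eif4a2, which was called higher; the choice was made after their values were known. Sequences are from RefSeq, build GRCm38.p6. Capitals mark matches, on either strand, to 4 motifs, namely the E-box (CACGTG), an ETS motif (CCGGAAG or CTTCCGG), the GC box (GGGCGG or CCGCCC) and the CCAAT box (CCAAT or ATTGG).
Eif1ad, chr19:5366563-5366812, plus strand: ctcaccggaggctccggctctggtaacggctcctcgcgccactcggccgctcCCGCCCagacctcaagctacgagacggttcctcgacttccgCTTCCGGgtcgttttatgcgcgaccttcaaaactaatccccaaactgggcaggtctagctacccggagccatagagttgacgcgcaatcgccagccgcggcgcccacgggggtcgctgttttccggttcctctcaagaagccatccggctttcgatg
Eif3d, chr15:77970825-77971074, minus strand: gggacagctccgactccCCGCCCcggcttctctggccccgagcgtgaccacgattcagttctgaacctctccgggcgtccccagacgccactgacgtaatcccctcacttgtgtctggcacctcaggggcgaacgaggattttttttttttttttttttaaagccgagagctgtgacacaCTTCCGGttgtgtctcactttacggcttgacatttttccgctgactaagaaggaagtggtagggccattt
Eif2b5, chr16:20498567-20498816, plus strand: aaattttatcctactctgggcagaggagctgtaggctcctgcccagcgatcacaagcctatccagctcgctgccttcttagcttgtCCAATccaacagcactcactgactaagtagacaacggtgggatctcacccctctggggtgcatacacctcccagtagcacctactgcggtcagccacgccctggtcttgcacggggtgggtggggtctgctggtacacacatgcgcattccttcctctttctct
Eif4a1, chr11:69672424-69672673, minus strand: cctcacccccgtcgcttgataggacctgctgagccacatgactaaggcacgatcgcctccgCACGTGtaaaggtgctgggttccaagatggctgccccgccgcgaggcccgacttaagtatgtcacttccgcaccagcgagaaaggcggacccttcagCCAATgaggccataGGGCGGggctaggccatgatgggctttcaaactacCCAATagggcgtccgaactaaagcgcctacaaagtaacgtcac
Eif4a2, chr16:23107218-23107467, plus strand: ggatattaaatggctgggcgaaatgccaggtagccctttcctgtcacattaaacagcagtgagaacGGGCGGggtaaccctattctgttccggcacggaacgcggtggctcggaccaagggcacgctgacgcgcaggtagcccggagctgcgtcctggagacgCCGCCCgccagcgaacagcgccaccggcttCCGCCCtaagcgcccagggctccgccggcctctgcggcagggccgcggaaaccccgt
The Eif1ad and Eif3d windows each held 1 ETS motif and 1 GC box, the Eif2b5 window held 1 CCAAT box, the Eif4a1 window held 1 E-box, 1 GC box and 2 CCAAT boxes, and the Eif4a2 window held 3 GC boxes and none of the others. A window was used for 45 of the 61 genes. An E-box was found in 12 of the 45 (26.7%), against 6.86% of the 27025 genes with a window, and in 0 of the 9 genes called lower that had a window. These 27025 genes were not limited to those with enough reads to be tested, and no share over the tested genes was taken. The ETS motif was found in 11 (24.4%, against 7.83% of all genes), 3 of them among the 9 called lower. A GC box was found in 33 (73.3%, against 35.4%) and a CCAAT box in 14 (31.1%, against 37.5%), while the cAMP response element TGACGTCA was found in 0, against 1.77% of all genes. Such matches describe letters in a window and say nothing of whether a factor binds there.

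**Figure D2:**
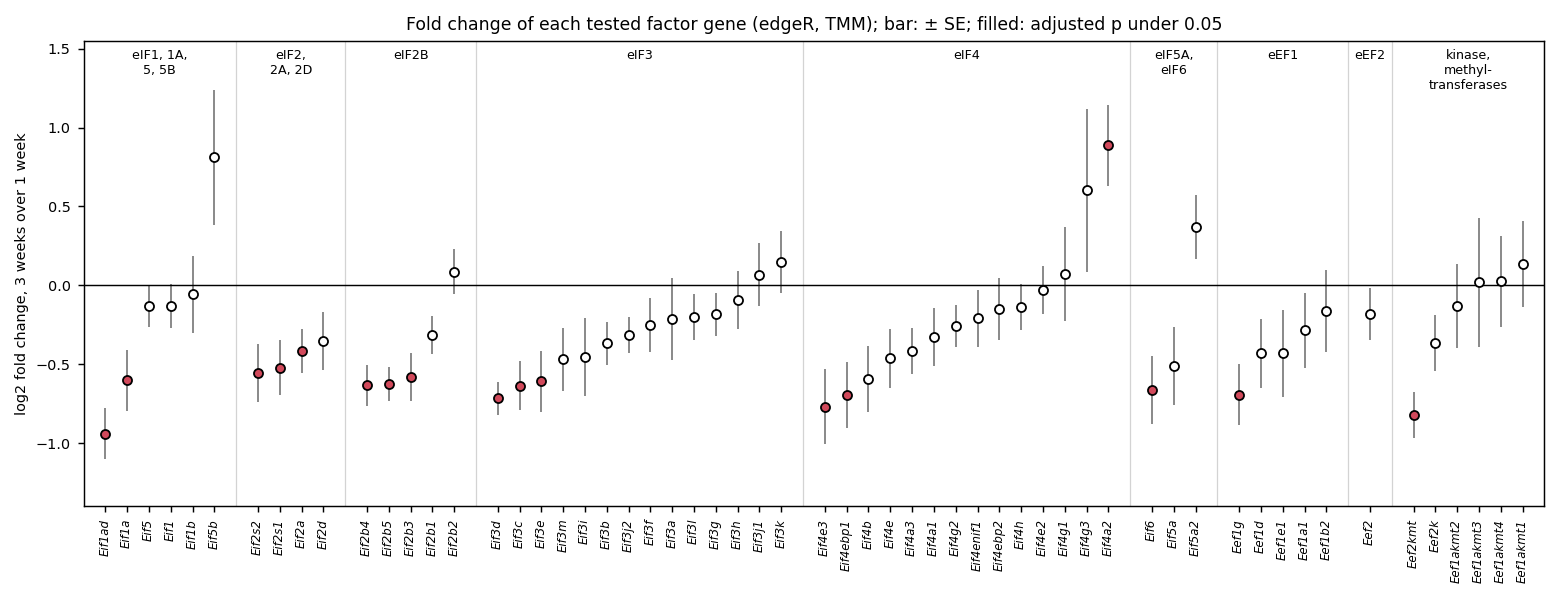
Log2 fold change (3 weeks over 1 week, edgeR after TMM normalization) of the 58 tested factor genes, grouped by role, with bars of ± 1 SE over 4 samples against 4 and filled points for an adjusted p under 0.05. Points lie below 0 for 47 genes, and only Eif4a2 is filled above 0.

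The genes named after factors that act at the start codon were taken as a group, Eif1ad included. Of these 6 genes, 2 were lower at 3 weeks, 4 did not pass, and the median log2 fold change was -0.13. The largest fall of all factor genes was that of Eif1ad (ENSMUSG00000024841, chr19:5366813-5371511), which encodes a protein with an eIF1A-like domain. Its RPKM was 37.1, 39.9, 27.6 and 32.8 at 1 week and 15.1, 16.8, 17.6 and 14.2 at 3 weeks. All samples at 3 weeks lay well below all samples at 1 week, and the means were 34.4 ± 5.36 (SD, n = 4) and 15.9 ± 1.56. The log2 fold change was -0.94 ± 0.16 (SE), a 1.92-fold fall with an adjusted p of 0.0029 in edgeR's quasi-likelihood test, and it stayed between -1.07 and -0.87 when any 1 sample was left out. Eif1a, which encodes the scanning factor eIF1A, fell from 99.2 ± 10.7 to 57.9 ± 12.5 RPKM (log2 fold change -0.60, adjusted p = 0.0414, edgeR). Its groups did not overlap, but the adjusted p rose to 0.0612 to 0.0977 without any of the 1-week samples and to 0.0879 or 0.0673 without replicate 1 or replicate 2 at 3 weeks.

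The 4 other genes of this group did not pass the test. Eif1, the gene of the fidelity factor eIF1, had 262 ± 27.2 RPKM at 1 week and 212 ± 11 at 3 weeks, with 40.1% of its reads mapped uniquely and an adjusted p of 0.504 (edgeR). Its copy Eif1b had 12.7 ± 1.43 and 10.8 ± 3.12 RPKM, and Eif5, which encodes the GTPase-activating protein of eIF2, had 55.6 ± 2.30 and 45.1 ± 4.80. Eif5b, the gene of the GTPase that joins the subunits, had the largest positive value among the genes not called (log2 fold change 0.81 ± 0.43 SE, adjusted p = 0.178, edgeR). Its RPKM was 4.04, 6.00, 8.84 and 9.82 at 1 week and 16.2, 8.78, 3.80 and 17.1 at 3 weeks. Replicate 3 at 3 weeks was thus the lowest of all 8 samples and replicate 4 the highest. Leaving out replicate 3 gave 1.06 (adjusted p = 0.0389, edgeR), leaving out replicate 4 gave 0.57 (adjusted p = 0.342), and the length index as a covariate gave 0.43 (adjusted p = 0.0419). Eif5b overlaps Rev1 on the opposite strand, and whether reads were counted by strand is not stated.

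The next genes are those of eIF2 and of its exchange factor eIF2B, which reloads eIF2 with GTP. Of the 4 genes of eIF2, eIF2A and eIF2D, 3 were lower and Eif2d did not pass, with a median of -0.47, and of the 5 subunit genes of eIF2B 3 were lower and 2 did not pass, with a median of -0.58. Eif2b5 (ENSMUSG00000003235, chr16:20498817-20509323) encodes the catalytic subunit of eIF2B. It had 55.1, 52.8, 47.9 and 47.6 RPKM at 1 week and 29.5, 31.9, 27.9 and 28.5 at 3 weeks, without overlap and with little spread. Its log2 fold change was -0.62 ± 0.11 (SE), a 1.54-fold fall with an adjusted p of 0.0028 (edgeR).

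Eif2b4 (ENSMUSG00000029145, chr5:31187558-31193430), the gene of the delta subunit, had 12.3, 11.2, 10.4 and 12.3 RPKM at 1 week and 6.61, 6.93, 6.70 and 6.34 at 3 weeks. All 3-week samples lay clearly below all 1-week samples, and the log2 fold change was -0.63 ± 0.13 (SE; adjusted p = 0.0060, edgeR). Eif2b4 overlaps Snx17 on the opposite strand. Eif2b3, which encodes the gamma subunit, fell from 7.58 ± 0.673 to 4.51 ± 0.592 RPKM (log2 fold change -0.58, adjusted p = 0.0182, and 0.0517 without replicate 4 at 1 week, edgeR). Its call was also lost with samples blocked by replicate number. For the alpha and beta subunits the values were smaller. Eif2b1 had 12.7 to 15.2 RPKM at 1 week and 9.58 to 10.3 at 3 weeks, without overlap, with an adjusted p of 0.0788 (0.0253 without replicate 3 at 3 weeks, edgeR), and Eif2b2 had 31.7 ± 2.09 and 30.0 ± 3.71 RPKM with an adjusted p of 0.680. The genes of this complex thus did not all pass the same threshold, and the differences between them were not tested.

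Among the eIF2 genes proper, Eif2s1, which encodes the alpha subunit that the eIF2 kinases phosphorylate, fell from 55.2 ± 4.02 to 34.0 ± 5.81 RPKM (log2 fold change -0.52, adjusted p = 0.0460, edgeR). Eif2s2, the gene of the beta subunit, fell from 78.9 ± 15.2 to 47.7 ± 5.05 RPKM (-0.56, adjusted p = 0.0444), with 29.9% of its reads mapped uniquely. On unique reads alone its log2 fold change was -0.59 with an adjusted p of 0.0239. Eif2a, which encodes the alternative initiation factor eIF2A, fell from 9.76 ± 0.670 to 6.52 ± 0.730 RPKM (-0.42, adjusted p = 0.0469). It overlaps Serp1 on the opposite strand, and Eif2s2 overlaps the gene a. These 3 calls lay close to the threshold and were lost without most single samples. The adjusted p of Eif2s1 was then 0.0562 to 0.109 in 7 of 8 omissions (all but replicate 3 at 3 weeks). That of Eif2s2 was 0.0682 to 0.114 in 6 (all but replicate 3 at 1 week and replicate 3 at 3 weeks), and that of Eif2a 0.0556 to 0.128 in 6 (all but replicates 3 and 4 at 3 weeks). Eif2d, an initiator tRNA-binding factor, had 12.0 ± 1.35 and 8.34 ± 1.53 RPKM with an adjusted p of 0.176, and of 0.0167 without replicate 3 at 3 weeks (edgeR).

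Of the 14 genes of eIF3, the large scaffold that holds the small subunit open for messenger RNA, 3 were lower (Eif3c, Eif3d and Eif3e), 11 did not pass, and the median log2 fold change was -0.28. Eif3d (ENSMUSG00000016554, chr15:77958998-77970813), the gene of a subunit that can itself bind the cap of some messenger RNAs, had 59.8, 58.0, 55.8 and 62.7 RPKM at 1 week and 33.1, 33.4, 30.4 and 31.5 at 3 weeks. The replicates of each group lay close together, and the groups were far apart. The log2 fold change was -0.72 ± 0.10 (SE), a 1.64-fold fall with an adjusted p of 0.0013 (edgeR), and it stayed between -0.76 and -0.69 when any 1 sample was left out. Eif3d overlaps Gm17638 on the opposite strand.

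Eif3c (ENSMUSG00000030738, chr7:126546455-126566411), a core subunit gene, had 155, 178, 143 and 157 RPKM at 1 week and 105, 96.0, 62.0 and 104 at 3 weeks. The groups did not overlap, and replicate 3 at 3 weeks was the lowest sample. The log2 fold change was -0.64 ± 0.16 (SE; adjusted p = 0.0133, edgeR). The gene was called with any 1 sample left out, but not with samples blocked by file number. Eif3e fell from 41.8 ± 6.84 to 24.2 ± 4.20 RPKM (-0.61, adjusted p = 0.0403). Its call was kept only without replicate 3 at either time, and in the other 6 omissions the adjusted p was 0.0564 to 0.103.

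The other eIF3 genes gave smaller values or a wider spread. Eif3b, the gene of another core subunit, had 138 ± 7.03 and 95.2 ± 14 RPKM, without overlap, and an adjusted p of 0.0665 (edgeR). Eif3a, the gene of the largest subunit, has a transcript of 5125 bases and had 49.96, 65.7, 74.2 and 77.6 RPKM at 1 week and 67.6, 52.4, 25.3 and 63.6 at 3 weeks. Only replicate 3 at 3 weeks, the library poorest in long transcripts, lay below the 1-week samples, and the log2 fold change was -0.21 with an adjusted p of 0.561 (edgeR). Without that library it was -0.03 (adjusted p = 0.898). Eif3f, Eif3g, Eif3j2, Eif3l and Eif3m did not overlap between the groups in RPKM, yet their adjusted p values were 0.295, 0.332, 0.0597, 0.319 and 0.0995. Eif3i, with 55.3 ± 8.21 and 35.5 ± 10.5 RPKM, had an adjusted p of 0.189. Without replicate 3 at 3 weeks Eif3i (0.0148), Eif3j2 (0.0342), Eif3l (0.0412) and Eif3m (0.0067) were called lower. Eif3h and Eif3k had 224 ± 35.2 and 60.03 ± 5.46 RPKM at 1 week and 186 ± 27.1 and 58.7 ± 12.6 at 3 weeks. Only 7.98% of the reads of Eif3j2, 1.92% of those of Eif3j1 and 31.7% of those of Eif3m were unique, so reads of the near-identical Eif3j genes may have been divided between them. Eif3m overlaps Ccdc73 and Eif3j1 overlaps Spg11 on the opposite strand.

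In the eIF4 group, which recognizes and unwinds the capped end, 14 of 16 genes were tested, 2 were lower (Eif4e3 and Eif4ebp1), 1 was higher (Eif4a2), and 11 did not pass, with a median of -0.23. Eif4a2 (ENSMUSG00000022884, chr16:23107444-23114136), one of a pair of genes for the RNA helicase eIF4A, had 21.0, 24.0, 14.2 and 15.0 RPKM at 1 week and 25.9, 21.7, 29.6 and 45.4 at 3 weeks. Replicate 2 at 3 weeks lay within the range of the 1-week samples, and replicate 4 was the highest. The log2 fold change was 0.89 ± 0.26 (SE), a 1.85-fold rise with an adjusted p of 0.0278 (edgeR). Without replicates 1, 3 or 4 at 1 week the adjusted p was 0.0520, 0.0737 and 0.0795, and limma on log2(RPKM + 0.1) gave 0.0590. The call was also lost with samples blocked by replicate number and with samples blocked by file number. Eif4a2 overlaps Rfc4 on the opposite strand. Its paralog Eif4a1 (ENSMUSG00000059796, chr11:69666936-69672423), the more abundant by RPKM, had 267, 249, 287 and 287 RPKM at 1 week and 183, 207, 228 and 152 at 3 weeks. The groups did not overlap, but after TMM normalization the log2 fold change was -0.32 with an adjusted p of 0.206 (0.0287 without replicate 3 at 3 weeks). Eif4a3, which encodes a helicase of the exon junction complex, had 57.1 ± 7.45 and 38.0 ± 3.37 RPKM and an adjusted p of 0.0534, which was 0.0479 without replicate 2 at 1 week and 0.0216 without replicate 3 at 3 weeks.

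The genes of the cap-binding proteins and their inhibitors were lower or not called. Eif4ebp1 (ENSMUSG00000031490, chr8:27260329-27276674) encodes 4E-BP1, which holds eIF4E back until mTORC1 phosphorylates it. Its RPKM was 137, 142, 88.5 and 108 at 1 week and 67.7, 76.9, 69.6 and 47.7 at 3 weeks. The groups did not overlap, and the log2 fold change was -0.69 ± 0.21 (SE; adjusted p = 0.0330, edgeR). The call was kept without replicate 3 at 1 week, replicate 3 or replicate 4 at 3 weeks, and the adjusted p was 0.0541 to 0.0865 in the other 5 omissions. Eif4e itself had 28.3, 28.1, 26.9 and 27.9 RPKM at 1 week and 16.6, 19.8, 21.9 and 13.0 at 3 weeks. It did not overlap either, with a log2 fold change of -0.46 and an adjusted p of 0.0904 (0.0096 without replicate 3 at 3 weeks, edgeR).

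Eif4e3 (ENSMUSG00000093661, chr6:99625135-99666771), the gene of a cap-binding relative of eIF4E, had 5.33, 4.50, 6.32 and 4.89 RPKM at 1 week and 2.99, 2.64, 3.44 and 1.81 at 3 weeks. The groups were apart, with a log2 fold change of -0.77 ± 0.24 (SE; adjusted p = 0.0361, edgeR). Only 14% of its reads were unique, and on unique reads the log2 fold change was -0.61 with an adjusted p of 0.191. Without any of the replicates 1, 3 and 4 at 1 week or 1 and 2 at 3 weeks the adjusted p was 0.0612 to 0.0920. Eif4e2 had 16.4 ± 0.738 and 14.3 ± 2.19 RPKM, Eif4ebp2 25.1 ± 5.41 and 20.2 ± 4.17, and Eif4enif1, whose protein carries eIF4E between nucleus and cytoplasm, 4.90 ± 0.661 and 3.82 ± 1.04, with 26.1% unique reads and an overlap with Drg1 on the opposite strand. Eif4e1b and Eif4ebp3 had 0 reads in all samples. A count of 3 reads, the limit that 0 reads allow for counting error, would be at most 0.0927 RPKM for Eif4e1b and 0.281 RPKM for Eif4ebp3.

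The scaffold genes Eif4g1 and Eif4g3 encode proteins that bridge the cap complex and eIF3. For both, and for their relative Eif4g2, the longest annotated transcript has at least 5000 bases. Eif4g1 had 43.7, 51.2, 75.9 and 77.3 RPKM at 1 week and 75.0, 58.5, 27.2 and 75.7 at 3 weeks, and Eif4g3 had 3.01, 4.00, 5.35 and 5.46 at 1 week and 7.22, 4.45, 1.25 and 11.9 at 3 weeks. In both genes replicate 3 at 3 weeks was the lowest of all samples, and the groups overlapped (log2 fold changes 0.07 and 0.60, adjusted p = 0.882 and 0.404, edgeR). Without that library the log2 fold change of Eif4g3 was 0.91 and that of Eif4g1 0.26, and without replicate 4 at 3 weeks they were 0.10 and -0.05, none of them called. With the length index as a covariate they were -0.06 and -0.14, also not called. Eif4g2, which encodes a scaffold without a binding site for eIF4E, had 151, 166, 155 and 148 RPKM at 1 week and 124, 123, 110 and 105 at 3 weeks, without overlap and with -0.26 as log2 fold change (adjusted p = 0.168). Eif4b, the gene of a helicase cofactor, had 97.7 ± 9.58 and 58.4 ± 20.7 RPKM and an adjusted p of 0.0538. Replicate 4 at 3 weeks, with 87.9 RPKM, lay within the 1-week range, and without it the log2 fold change was -0.83 with an adjusted p of 0.0019 (edgeR). Eif4h, the gene of a related cofactor, had 93.2 ± 3.64 and 75.3 ± 8.54 RPKM and an adjusted p of 0.508.

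**Figure D3:**
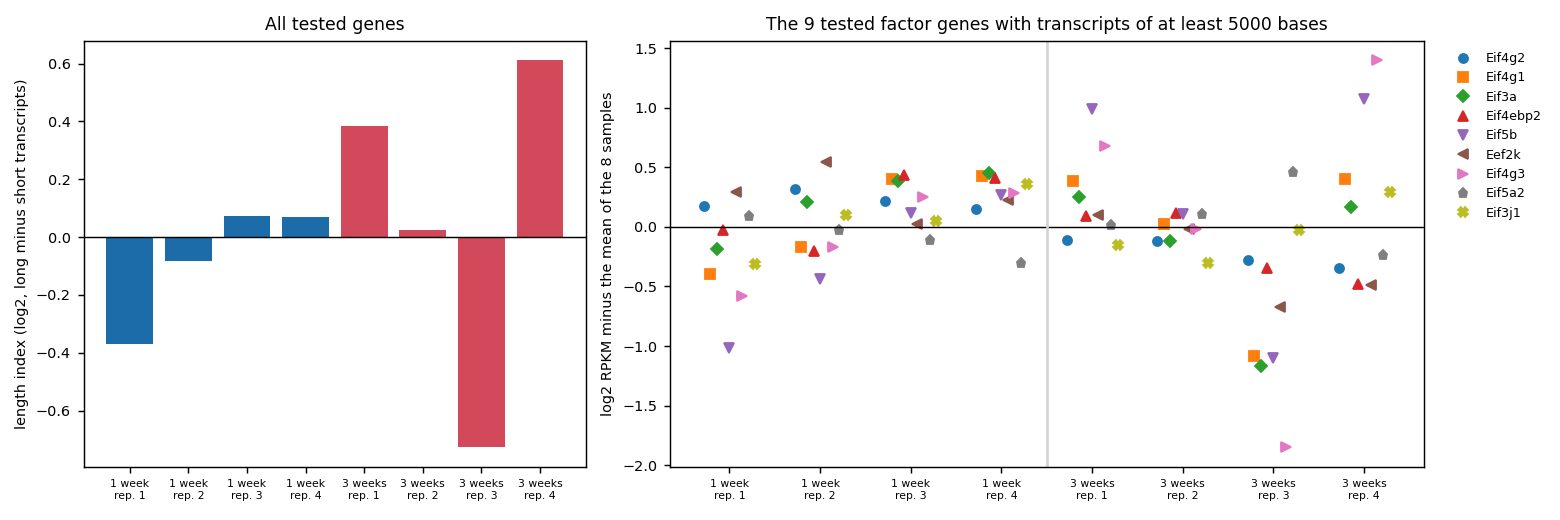
Left, length index of each library (log2, median level of genes with long transcripts minus that of genes with short ones, relative to the mean of the samples). Right, log2 RPKM of the 9 tested factor genes with transcripts of at least 5000 bases, relative to the mean of the 8 samples; in replicate 3 at 3 weeks, where the index is -0.73, Eif5b, Eif4g3, Eif4g1, Eif3a and Eef2k are at their lowest, while Eif5a2 is at its highest and Eif3j1, Eif4ebp2 and Eif4g2 are at neither end.

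Among the 9 tested genes with transcripts of at least 5000 bases (Eef2k, Eif3a, Eif3j1, Eif4ebp2, Eif4g1, Eif4g2, Eif4g3, Eif5a2 and Eif5b) 0 were called, at an unadjusted p under 0.05 also 0, with a median log2 fold change of 0.07. Among the 49 genes with shorter transcripts 16 were lower and 1 was higher (34.7% called), with a median of -0.37. Of all tested genes with such long transcripts 28.2% were called and 38.4% had an unadjusted p under 0.05 (edgeR), with a median of 0.15. Of those with shorter ones 34.1% were called, with a median of -0.01. The part of transcript length in these values was not tested beyond the covariate above, under which Eif3a and Eif4g2 were called lower and Eif5b and Eif5a2 were called higher.

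Of the 3 genes of eIF5A and eIF6, 1 was lower. Eif6 (ENSMUSG00000027613, chr2:155819832-155826925), whose protein keeps the large ribosomal subunit from joining the small one too early, had 246, 237, 193 and 230 RPKM at 1 week and 123, 143, 154 and 85.5 at 3 weeks. The groups did not overlap, and the log2 fold change was -0.66 ± 0.22 (SE; adjusted p = 0.0431, edgeR). Without any of the 1-week samples, or replicate 1 or 2 at 3 weeks, the adjusted p was 0.0521 to 0.101. Eif6 overlaps Gm16098 on the opposite strand. Eif5a (ENSMUSG00000078812, chr11:69916714-69921958), which encodes the hypusine-containing factor that eases peptide bond formation, had 715, 625, 636 and 632 RPKM at 1 week and 366, 453, 533 and 261 at 3 weeks. All 3-week samples were lower, but they spread widely, and the log2 fold change of -0.51 had an adjusted p of 0.142 (0.0168 without replicate 3 at 3 weeks, where it was -0.77). The less abundant copy Eif5a2 had 3.68, 3.39, 3.20 and 2.80 RPKM at 1 week and 3.50, 3.72, 4.76 and 2.94 at 3 weeks, and its groups overlapped (log2 fold change 0.37, adjusted p = 0.195).

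Per length, Eef1a1 and Eef2 had the highest mean RPKM of the 61 genes, ahead of Eif5a and Eef1g. Eef1a1 (ENSMUSG00000037742, chr9:78478449-78489151), the gene of the factor that delivers aminoacyl-tRNAs, had 5476, 5215, 3927 and 3967 RPKM at 1 week and 2880, 3411, 4169 and 3042 at 3 weeks. Replicate 3 at 3 weeks overlapped the 1-week range, and the log2 fold change of -0.28 had an adjusted p of 0.394 (edgeR). Without that library it was -0.49 with an adjusted p of 0.0719. Eef1a2, the copy known from muscle and neurons, had at most 6 reads in a sample and was not tested. Eef2 (ENSMUSG00000034994, chr10:81176631-81182498), the gene of the translocation factor, had 1550, 1546, 1254 and 1314 RPKM at 1 week and 1051, 1103, 1090 and 1216 at 3 weeks. Its groups did not overlap in RPKM, yet after TMM normalization the log2 fold change was -0.18 with an adjusted p of 0.434.

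Of the 5 tested eEF1 genes only Eef1g was called, and the median log2 fold change was -0.43. Eef1g (ENSMUSG00000071644, chr19:8967041-8978479), which encodes a structural subunit of the exchange complex of eEF1A, had 674, 614, 549 and 541 RPKM at 1 week and 315, 364, 377 and 248 at 3 weeks. The groups were far apart, with a log2 fold change of -0.69 ± 0.19 (SE), a 1.62-fold fall with an adjusted p of 0.0241 (edgeR). It was 0.0555 without replicate 2 at 1 week, and 0.0652 and 0.0528 without replicates 1 and 2 at 3 weeks. The exchange subunit genes Eef1d and Eef1b2 had 45.1 ± 3.15 and 340 ± 69.6 RPKM at 1 week and 29.5 ± 7.72 and 267 ± 76.5 at 3 weeks, with adjusted p values of 0.164 and 0.665. Eef1b2 overlaps Ndufs1 on the opposite strand. Eef1e1, a gene of the multisynthetase complex, had 24.0 ± 3.17 and 15.7 ± 5.47 RPKM with an adjusted p of 0.265. Without replicate 3 at 3 weeks Eef1d (0.0179) and Eef1e1 (0.0350) were called lower, and the log2 fold change of Eef1b2 went from -0.16 to -0.47 (adjusted p = 0.0823, edgeR).

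Among the 6 genes of enzymes that modify the elongation factors, 1 was lower. Eef2kmt (ENSMUSG00000022544, chr16:5244152-5255983), which encodes a lysine methyltransferase of eEF2, had 6.41, 6.09, 6.35 and 6.22 RPKM at 1 week and 3.61, 3.23, 2.27 and 3.66 at 3 weeks. The 1-week values were nearly alike, and all 3-week values lay below them, with a log2 fold change of -0.82 ± 0.15 (SE), a 1.77-fold fall with an adjusted p of 0.0034 (edgeR). Eef2kmt overlaps Alg1 and Gm15983 on the opposite strand, and introns held 1.21% to 8.94% of its gene reads at 1 week and 16.5% to 19.1% at 3 weeks. Eef2k, the gene of the kinase that inhibits eEF2, had 9.91, 11.8, 8.26 and 9.45 RPKM at 1 week and 8.68, 7.98, 5.08 and 5.76 at 3 weeks, with overlapping groups and an adjusted p of 0.151. The methyltransferase genes Eef1akmt1 to Eef1akmt4 had log2 fold changes between -0.13 and 0.14, with adjusted p values between 0.734 and 0.980. Only 30.8% of the reads of Eef1akmt2 and 5.71% of those of Eef1akmt4 were unique.

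Ratios within a sample cancel its library size, and 7 pairs of related genes were compared in this way, as the log2 ratio of RPKM. Eef1a2 to Eef1a1 was not tested because of zero reads in some samples, and 6 pairs were tested with all 70 ways to arrange the samples (exact permutation, two-sided), for which 0.0286 is the smallest possible p. With adjustment over these 6 pairs none passed 0.05. A pair with the smallest possible p, however large its difference, could have passed only if several others reached that p too. The ratio of Eif4a2 to Eif4a1 was -3.67, -3.37, -4.34 and -4.26 at 1 week and -2.82, -3.26, -2.94 and -1.74 at 3 weeks. All 3-week samples lay above all 1-week samples, by 1.22 on average or 2.33-fold, with the smallest p (0.0286) of the exact permutation test and an adjusted p of 0.0857. Eif4a2 made up 4.72% to 8.81% of the summed RPKM of both genes at 1 week and 9.47% to 23.0% at 3 weeks.

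The ratio of Eif5a2 to Eif5a was -7.60, -7.53, -7.63 and -7.82 at 1 week and -6.71, -6.93, -6.81 and -6.47 at 3 weeks. Here too the groups did not overlap, with a difference of 0.92 or 1.89-fold and the same p values of the exact permutation test (0.0286, adjusted 0.0857). Eif5a2 remained a small part, with 0.441% to 0.539% of the sum at 1 week and 0.814% to 1.11% at 3 weeks. The transcript of Eif5a2 is 5027 bases long and that of Eif5a 1437 bases, and the part of transcript length in this ratio was not tested. The other pairs overlapped between the groups. The difference in log2 ratio was -0.19 for Eif4ebp1 to Eif4e (exact permutation p = 0.286), -0.29 for Eif4g2 to Eif4g1 (0.543), 0.24 for Eif4g3 to Eif4g1 (0.629) and -0.20 for Eef2k to Eef2 (0.400). With 1 sample left out at a time the difference stayed between 0.90 and 1.41 for Eif4a2 to Eif4a1 and between 0.83 and 0.98 for Eif5a2 to Eif5a, while that of Eif4g3 to Eif4g1 ran from -0.05 to 0.54 and so changed sign.

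**Figure D4:**
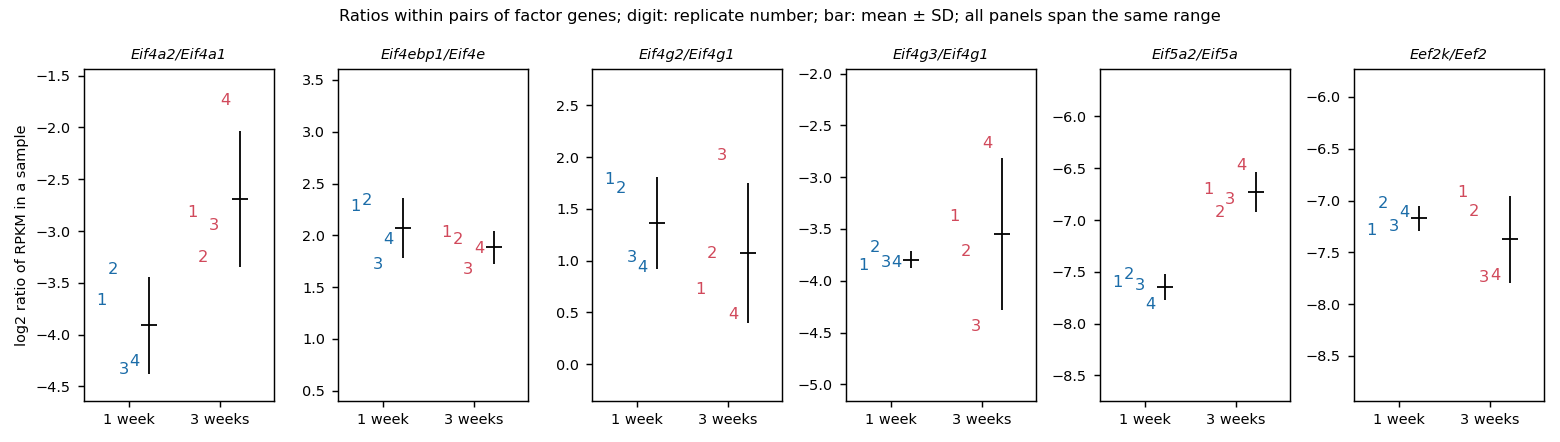
Log2 ratio of RPKM within each sample for the 6 tested pairs, with the replicate number as the symbol (blue, 1 week; red, 3 weeks) and bars of mean ± SD (n = 4). Each panel has its own position but the same span; the groups are apart for Eif4a2/Eif4a1 and Eif5a2/Eif5a and overlap for the other 4 pairs.

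The genes around these factors were viewed through a list of 41 genes of eIF2 kinases and phosphatases, termination and recycling factors, poly(A)-binding proteins, regulators of eIF4 factors, the mTORC1 axis and the enzymes that modify eIF5A and eEF2. All 41 were tested, 6 were lower, 4 were higher and 31 did not pass, with a median log2 fold change of 0.02. In the same fit 17.0% of all genes were lower and 15.7% higher, and 14.6% and 9.76% of this list. Eif2ak3, the gene of the eIF2 kinase PERK, rose from 2.98 ± 0.753 to 8.57 ± 2.12 RPKM (log2 fold change 1.68, adjusted p = 0.00075, edgeR). Pdcd4, whose protein inhibits eIF4A, had 5.06, 4.98, 5.45 and 4.97 RPKM at 1 week and 8.92, 6.43, 6.00 and 15.9 at 3 weeks, without overlap and with replicate 4 the highest (1.01, adjusted p = 0.0209, and 0.0636, 0.0545 and 0.0564 without replicates 1, 2 and 4 at 1 week). Pabpc4, the gene of a poly(A)-binding protein, fell from 62.2 ± 7.48 to 27.4 ± 2.56 RPKM (-1.02, adjusted p = 0.00070). The other calls were smaller than 1 on the log2 scale, with Dph2, Abce1, Dph1, Ppp1r15b and Hbs1l lower and Paip2 and Paip2b higher. The calls of these 5 lower genes, of Eif2ak3 and of Pabpc4 held with any 1 sample left out. That of Paip2 was lost without replicates 2, 3 or 4 at 1 week or replicate 2 at 3 weeks (adjusted p 0.0530 to 0.0823, edgeR), and that of Paip2b without replicates 1, 3 or 4 at 1 week or 1, 2 or 3 at 3 weeks (0.0560 to 0.0974).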

How the data were processed

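Poly(A) RNA was sequenced with single-end reads from 4 cultures of KCs at 1 week and 4 at 3 weeks. The authors trimmed adapters, used the CLC Genomics Workbench at default settings to align reads to GRCm38, and deposited 1 gene table per sample with raw read counts per gene (total and unique exon reads, gene reads, intron reads) and RPKM values written with decimal commas. The deposited RPKM equalled exon reads divided by exon length and mapped reads within 0.0373%. Strand use and annotation release are not given in the sources used here. Transcript lengths (longest transcript) came from GENCODE.

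The main test took total exon read counts and edgeR 4.0.16 under R 4.3.3 (filterByExpr, TMM, glmQLFit and glmQLFTest, 3 weeks against 1 week, no pairing), with Benjamini-Hochberg adjustment over 12590 genes. Each SE is the log2 fold change divided by the root of its F statistic. Intervals and limits of 3 reads cover counting error only. On simulated counts for 12590 genes the procedure recovered 109 of 200 changed genes (82% of the 4-fold and 27% of the 2-fold changes), with 6 false calls. In the data 4127 genes were called, so the adjustment set a less strict cutoff on the unadjusted p than in the simulation. The shares recovered thus do not give those in the data, where smaller changes can also be missed. The study describes 4 independent batches of KCs cultured for either time, the labels tie no samples to a batch, and p-values measure the spread between samples. Per-sample values are given for the 10 largest falls and up to 6 largest rises among called genes. They are also given for the 4 genes with the highest mean RPKM, the members of the 7 pairs and, outside this rule, Eif5b and Eif3a. For the wider list, values are given for called genes with an absolute log2 fold change of at least 1. The genes, lists, pairs and tests were chosen with earlier results of these data known. Alternatives were upper-quartile and RLE factors, DESeq2 1.42.0, no low-count filter, at least 10 reads in every sample, unique or gene reads, limma 3.58.1 on log2(RPKM + 0.1) and log2(RPKM + 1), blocks, omission of each sample, and the 2 covariates added later. Other computations used Python 3.11.15 with scipy 1.17.1, and figures matplotlib 3.10.9.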

Additional observations from a re-analysis of the deposited data

Results flagged for a closer look

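In 5 of the 116 groups of 4 samples (58 genes at 2 times) 1 sample's RPKM lay far from the other 3 by Dixon's criterion, and chance alone flags about 1 in 20 groups, or 5.8 of 116. At 3 weeks, replicate 4 had 24.4 RPKM of Eif2b2, against 31.4 to 32.2 in the others, and 33.0 RPKM of Eif4a3, against 39.4 to 40.2. At 1 week, replicate 1 had 86.7 RPKM of Eif3l, against 79.6 to 80.8 in the others, 3.91 RPKM of Eif4enif1, against 5.16 to 5.28, and 715 RPKM of Eif5a, against 625 to 636. The length index was -0.37 in replicate 1 at 1 week and 0.61 in replicate 4 at 3 weeks, the lowest and the highest of their groups, and its part in the 5 values was not tested.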

How the results depend on the processing

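The count of 16 lower and 1 higher factor genes was 32 and 0 with limma on log2(RPKM + 0.1) and also on log2(RPKM + 1), and 31 and 4 with the length index as a covariate. With 1 sample left out it ran from 7 to 28 lower and from 0 to 2 higher. The study describes the same batches of KCs at both times. Samples with the same replicate number in the labels had correlations of -0.23, -0.15, -0.15 and 0.25. For the file names, of which 3 numbers occur at both times, the correlations were -0.23, 0.20 and 0.25. These correlations cannot decide whether either set of numbers pairs the samples, since the libraries also differed in the length index. For the samples with file number 46 the index was -0.37 at 1 week and 0.38 at 3 weeks. With the replicate block the count was 7 and 0, without Eif4a2, Eef1g, Eif1a, Eif2a, Eif2b3, Eif2s1, Eif2s2, Eif3e, Eif4ebp1 and Eif6. With the block by file number it was 17 and 0, without Eif4a2, Eif2a, Eif2s2, Eif3c and Eif4ebp1 and with 5 others. The number of all genes called ranged from 3015 to 4861 with 1 sample left out and was within 1.5 times 4127 in each alternative. None of the 17 called genes changed sign in any alternative, and the cause of the lost and gained calls was not tested.

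Log2 fold changes of some genes that were not called changed sign in some settings. With limma on log2(RPKM + 0.1) these were -0.10 for Eef1akmt1, -0.19 for Eef1akmt3, -0.24 for Eef1akmt4, -0.088 for Eif2b2, -0.090 for Eif3j1, -0.052 for Eif3k and -0.13 for Eif4g1. On log2(RPKM + 1) these were -0.094 for Eef1akmt1, -0.044 for Eef1akmt3, -0.21 for Eef1akmt4, -0.086 for Eif2b2, -0.056 for Eif3j1, -0.051 for Eif3k and -0.13 for Eif4g1. Without the low-count filter these were -0.049 for Eef1akmt3 and -0.046 for Eef1akmt4. With the replicate block these were -0.072 for Eef1akmt3 and -0.068 for Eef1akmt4. With the block by file number these were -0.28 for Eef1akmt1, -0.41 for Eef1akmt3, -0.37 for Eef1akmt4, -0.041 for Eif2b2, -0.0067 for Eif3j1 and -0.11 for Eif3k. On unique reads these were -0.11 for Eef1akmt4. With the Y-linked reads as a covariate these were -0.058 for Eef1akmt1, -0.0071 for Eef1akmt3 and -0.17 for Eef1akmt4. With the length index these were 0.020 for Eif4e2, -0.14 for Eif4g1 and -0.055 for Eif4g3. With 1 sample left out they ran from -0.14 to 0.34 for Eef1akmt1, -0.39 to 0.074 for Eef1akmt2, -0.29 to 0.26 for Eef1akmt3, -0.25 to 0.25 for Eef1akmt4, -0.23 to 0.14 for Eif1b, -0.019 to 0.19 for Eif2b2, -0.057 to 0.18 for Eif3j1, -0.092 to 0.25 for Eif3k, -0.16 to 0.092 for Eif4e2 and -0.074 to 0.26 for Eif4g1.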

Other observations

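Introns held 17.8% of the gene reads of Eif4g3 in replicate 3 at 3 weeks and 2.11% to 4.80% in the other 7 samples. The exon reads of Eif4g3 were also lowest in that library, at 1.25 RPKM.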
